A study of Mus musculus with 13 samples.

Results

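The liver burns fatty acids through a set of enzymes, carriers and binding proteins whose genes are switched on by PPAR-alpha, and 37 of these genes were followed here through cholestasis. The set holds genes of fatty acid uptake, oxidation and ketone body formation, without the Cyp4a family, and was taken by gene symbol from the 23785 Entrez genes of the count tables. All 37 were found, and all 37 passed the filter on low counts in each of the 3 comparisons. The samples were livers of 13 male C57 mice, 3 months old. In 5 mice the bile duct was not tied (no BDL). In the other 8 it was tied (bile duct ligation, BDL), which dams bile in the liver. Of these, 4 mice received a control oligonucleotide (miR-Ctrl BDL) and 4 received anti-miR-873-5p, which blocks the microRNA miR-873-5p. These last 4 are called anti-miR BDL in what follows. The dose was 60 µg per mouse into the tail vein on days 3 and 5 after surgery, and livers were taken on day 7. The no BDL mice are labelled as not treated, and the labels give no oligonucleotide for them, so ligation and injection cannot be told apart in the comparisons with it.

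PPAR-alpha is a nuclear receptor that binds fatty acids and, with its partner RXR-alpha, turns on the genes that take fatty acids up, carry them into mitochondria and peroxisomes and shorten them there. Hepatocytes use this pathway in fasting, when fat becomes the main fuel and its products leave the liver as ketone bodies. The receptor binds DNA at a direct repeat of the core motif AGGTCA with 1 base between the repeats.

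Sequences are given where the data or the treatment bear on them. The microRNA blocked in the treated mice is shown because the comparison of both BDL groups rests on it. Its mature form (mmu-miR-873a-5p, RefSeq, GRCm38.p6, chr4:36668556-36668576, minus strand) has its seed, bases 2 to 8, in capitals.
miR-873a-5p: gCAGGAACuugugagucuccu
The match to this seed in a transcript is GTTCCTG, and it occurred in the 3′ UTR of 7 of the 37 members (18.9%), against 3090 of 20958 genes with a GENCODE M21 3′ UTR (14.7%). These were Acot1, Acot3, Acot4, Aldh3a2, Cpt1a, Cpt2 and Hadhb, and the matches of Acot1 and Acot4 lie past the RefSeq ends of these genes. The 3′ UTR of Gnmt, the gene whose transcript the treatment was meant to protect, held no GTTCCTG. The paper reports that a mimic of the blocked microRNA lowered the activity of a reporter with the Gnmt 3′ UTR in mouse hepatocytes. In the same cells it reports less Gnmt mRNA and protein with the mimic. Only the letters GTTCCTG were searched, so their absence does not show that Gnmt is no target. The windows of Cpt1a, Cpt2 and Aldh3a2, whose values are given in full further on, are shown on the strand of the transcript with the match in capitals. They lie in GRCm38 at chr19:3384523-3384549 (plus strand), chr4:107904131-107904157 (minus strand) and chr11:61245646-61245672 (minus strand).
Cpt1a: ttcccctcacaaGTTCCTGcatagaga
Cpt2: tcaacaaaactaGTTCCTGgtgcttga
Aldh3a2: gcagtcacagctGTTCCTGagcctgag
A match of letters is a description and not a tested site.

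Of the members, 33 had a RefSeq promoter window (250 bases before to 50 after the start, GRCm38.p6), and Crat, Acaa2, Decr1 and Vnn1 had none. The core motif AGGTCA, on either strand, was found in 10 of the 33 (30.3%) and in 4900 of 27025 windows of all genes (18.1%). The full direct repeat AGGTCANAGGTCA was in 0 of the 33 and in 13 of all windows (0.0481%). With the base at the fourth position of each core motif free (AGGNCANAGGNCA), which takes in the full repeat, it was in 122 of all windows (0.451%) and in 1 member, Fabp1. That window is shown because Fabp1 also had the lowest fold change of the set. The repeat, in capitals, begins 67 bases before the start and reads on the strand opposite to the gene, so the window is printed from the minus strand of chr6:71199804-71199832 (GRCm38.p6).
Fabp1: tcagatatAGGCCATAGGTCAgtgattgt

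Depth ran from 12185333 to 19689037 counts per mouse and was higher in no BDL than in most BDL mice, so depth moved with the groups. Values of single mice are normalized counts, that is CPM after TMM scaling over all 13 mice, listed in the order of the mouse numbers in the labels. Fold changes and adjusted p-values come from edgeR's quasi-likelihood test on the deposited table of each comparison, and a gene was called where its adjusted p was under 0.05. SE is the standard error of the log2 fold change. Gnmt, the gene whose transcript the study set out to protect with anti-miR-873-5p, read 1742, 1485, 1598, 1283 and 1074 in no BDL, 429, 567, 432 and 589 in miR-Ctrl BDL and 885, 1389, 533 and 287 in anti-miR BDL. Its log2 fold change was -1.49 (edgeR adjusted p = 0.000546) in miR-Ctrl BDL against no BDL, -0.88 (edgeR adjusted p = 0.135) in anti-miR BDL against no BDL and 0.10 (edgeR adjusted p = 0.97) between both BDL groups. The values against no BDL include all mice. The value between both BDL groups leaves out miR-Ctrl mouse 3 (432) and anti-miR mouse 2 (1389), the highest anti-miR mouse for Gnmt. In whole liver, fewer cells of a type and less RNA per cell cannot be told apart.

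A pair of BDL mice stood apart from their groups in these genes. miR-Ctrl mouse 3 had the highest value of its group for 33 of the 37 members, against 39.4% of the genes tested in both comparisons with no BDL. Anti-miR mouse 2 was highest for 27 members, against 37.3% of genes, and the same 27 genes were highest in miR-Ctrl mouse 3. The authors left both mice out of their table of the BDL groups. As the median log2 ratio of a mouse's members to the no BDL mean, miR-Ctrl mouse 3 stood at 0.28 and the other miR-Ctrl mice at -0.82, -1.05 and -0.95. Anti-miR mouse 2 stood at 0.13 and its group mates at -0.40, -0.69 and -0.67. Among the no BDL mice, mouse 5 was lowest for 31 members, against 26.8% of genes. Its median ratio was -0.50, and those of the other 4 lay between -0.04 and 0.18. Counts are therefore given with and without the 2 BDL mice, and so are the values of many of the members named.

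**Figure D1:**
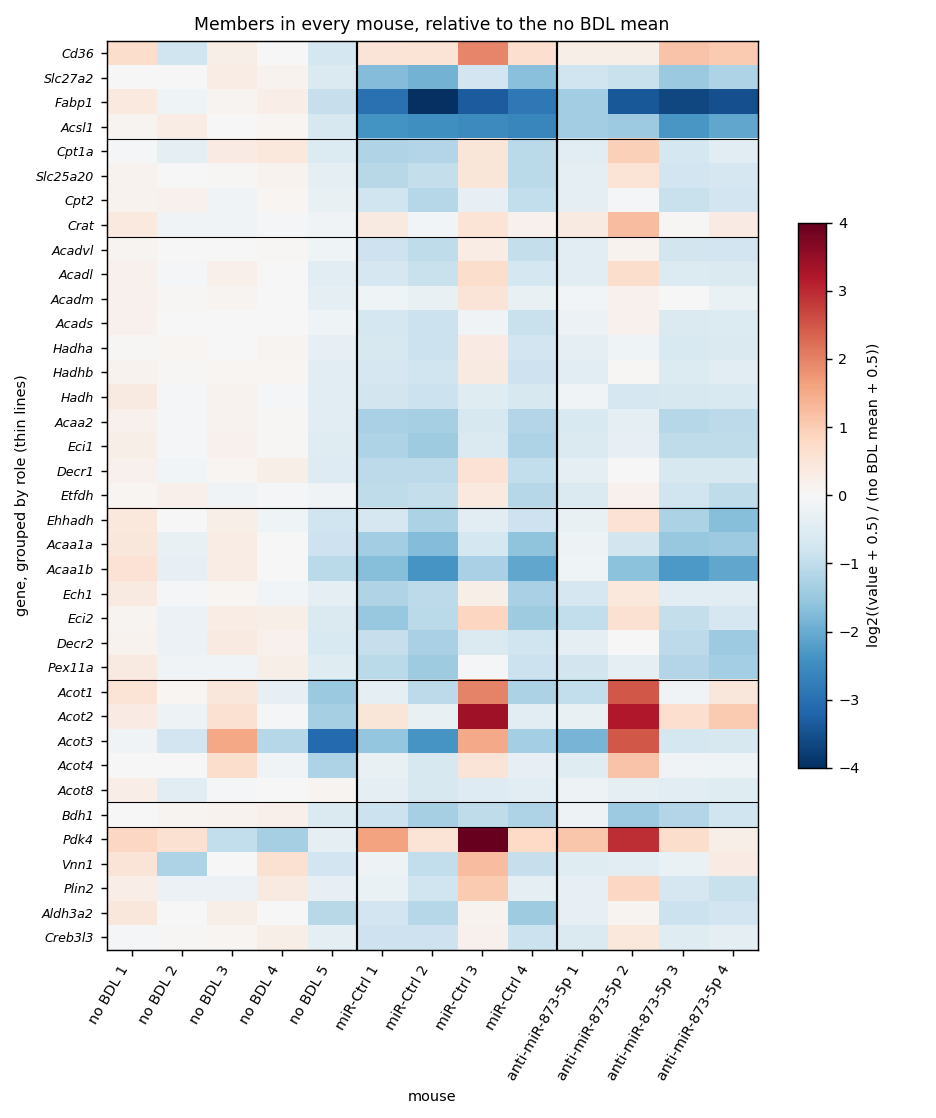
Heat map of the 37 members (rows, by role) in the 13 mice (columns, by group), as log2 of normalized count over the no BDL mean with 0.5 added to both. miR-Ctrl mice 1, 2 and 4 are mostly below 0, miR-Ctrl mouse 3 and anti-miR mouse 2 stand nearer to or above 0, and no BDL mouse 5 is the lowest of its group in 31 rows.

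The same mice differed in markers of other cells. Summed over 8 cholangiocyte (bile duct cell) markers, normalized counts were 66.8 to 151.1 in no BDL, 482.5 in miR-Ctrl mouse 3 against 1081 to 1667 in its group mates, and 240.2 in anti-miR mouse 2 against 1187 to 1621. The sum of 8 stellate cell and myofibroblast markers was 85.9 to 137.0 in no BDL, 193.6 in miR-Ctrl mouse 3 against 336.2 to 634.4, and 124.4 in anti-miR mouse 2 against 503.0 to 791.5. Both mice had the lowest value of their group in both sums. Most of the cholangiocyte sum was Spp1, at 381 in miR-Ctrl mouse 3 against 1018 to 1571 in its group mates. Cldn7 was also lowest in that mouse, but Krt7 (11.6) and Sox9 (44.8) were highest of the group. By the median log2 ratio of these 8 markers to no BDL, miR-Ctrl mouse 3 (2.15) was not lowest of its group (1.79 to 2.37). Anti-miR mouse 2 was, at 0.91 against 1.73 to 3.13. The sum of the neutrophil markers was highest in miR-Ctrl mouse 3, at 223.8, against 18.8 to 64.3 in the other miR-Ctrl mice and 3.15 to 14.2 in no BDL. In anti-miR mouse 2 it was instead the lowest of its group, at 13.5 against 18.1 to 69. Summed over 7 endothelial markers, both mice were again lowest of their groups. The values were 29.5 in miR-Ctrl mouse 3 against 79.1 to 141.9, and 45.1 in anti-miR mouse 2 against 74.6 to 134.8, with 90.9 to 144.6 in no BDL. Over 9 hepatocyte markers, mostly Alb, the sum was 101416 to 116757 in no BDL and 51353 to 80048 in miR-Ctrl BDL. In anti-miR BDL it was 46235 to 99460, where mouse 2 was the highest and the next mouse stood at 63710. The list split in miR-Ctrl mouse 3, with Alb, Ttr and Hpd lowest of the group and Apoa1, Apob, Hnf4a, Tat and Ahsg highest. Of 10 hepatocyte genes, 5 were called lower in miR-Ctrl BDL and 2 in anti-miR BDL, against 16.6% and 8.44% of all genes. Of the other markers, 7 of 8 cholangiocyte, 7 of 8 macrophage and 5 of 8 stellate cell genes were called higher in miR-Ctrl BDL, and 7, 2 and 4 in anti-miR BDL. Over all genes 19.1% were called higher in miR-Ctrl BDL and 13.1% in anti-miR BDL. Neutrophil genes were called higher in 4 of the 4 that passed the filter in miR-Ctrl BDL and in 3 of 3 in anti-miR BDL. Some could pass it through the BDL mice alone, as S100a8 had 2 to 37 counts in no BDL and 49 to 916 in miR-Ctrl BDL. The filter thus partly set these counts of genes. Of 7 endothelial genes 0 were called lower in miR-Ctrl BDL and 1 in anti-miR BDL. Of the T cell genes 1 of the 2 tested was lower in miR-Ctrl BDL and 0 of 1 in anti-miR BDL. Here Cd4 could pass through the no BDL mice alone, with 22 to 64 counts there and 3 to 12 in miR-Ctrl BDL. Acta1, the only striated muscle gene tested, was called higher in miR-Ctrl BDL and not in anti-miR BDL. No marker of any list was called between both BDL groups, and neither was any of the 13746 genes tested (0.0%). By size, 8 of 8 stellate cell genes (median log2 fold change 0.44), 7 of 8 cholangiocyte genes (0.30) and 6 of 10 hepatocyte genes (0.068) were above 0 there, and 0 of 8 macrophage genes (-0.36). No adipocyte gene passed the filter. The adipocyte markers Adipoq, Lep, Plin1, Retn and Cfd were at 0 in every miR-Ctrl mouse. The part of these cells in the values of the members was not tested.

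The first comparison asked what BDL did to these genes in mice with the control oligonucleotide. Of the 37 members, 15 fell and 2 rose, against 16.6% of all 13072 genes tested called lower and 19.1% called higher (35.7% in either direction). The median log2 fold change over the members was -0.50, against -0.01 for all genes tested. Without miR-Ctrl mouse 3, 27 members fell and 0 rose, with a median of -0.96, where 20.1% of all genes were called lower and 22.2% higher. DESeq2 called 15 members lower and 1 higher with all mice, against 17.8% and 21.5% of all genes. All of these directions are relative to the median gene, which TMM scaling sets near 0. With library size alone the median of all genes moved to 0.79, the members' median turned to 0.25, and 4 members were called lower and 6 higher, against 2.1% and 71.6% of all genes, while 30 of 37 still lay below the median of all genes. In 9 members every miR-Ctrl mouse lay below every no BDL mouse, against 14.8% of all genes. These were Slc27a2, Fabp1, Acsl1, Cpt2, Hadh, Acaa2, Eci1, Acaa1b and Bdh1.

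**Figure D2:**
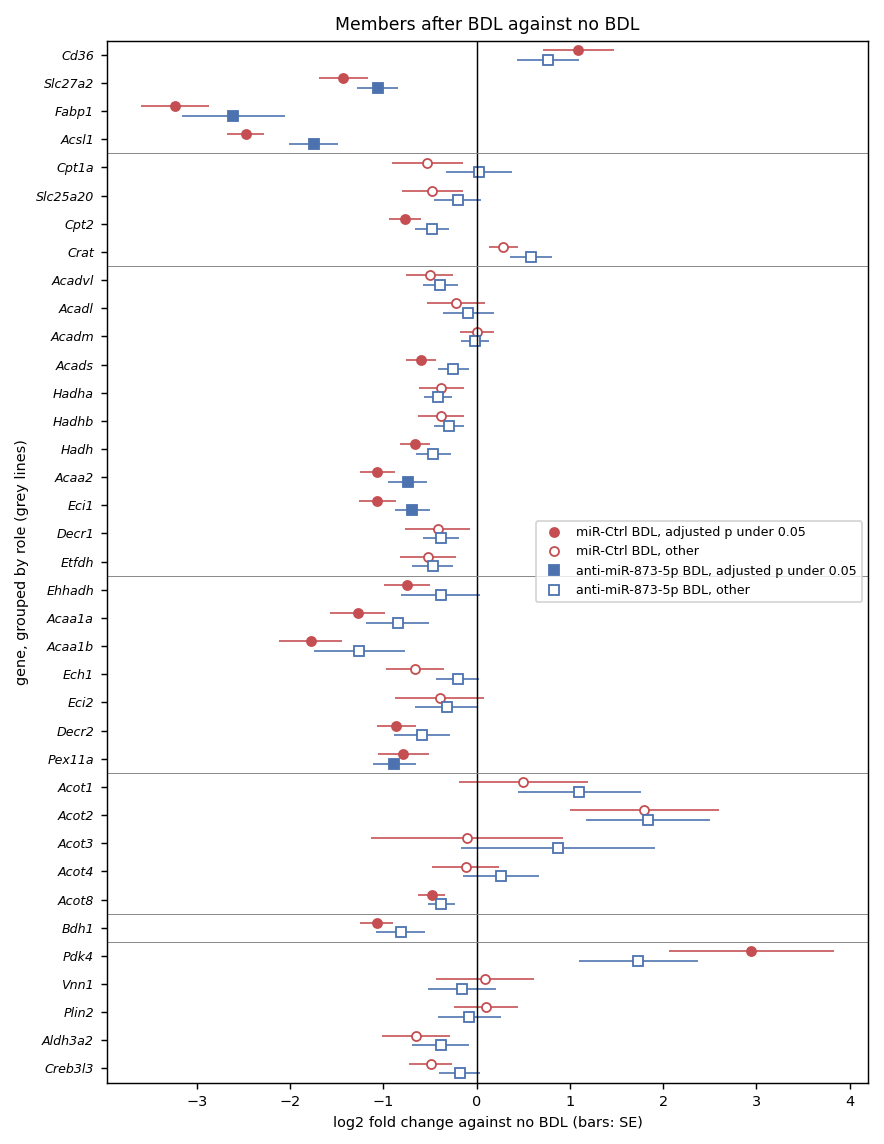
Log2 fold change against no BDL with its standard error for each of the 37 members, in miR-Ctrl BDL and in anti-miR BDL, filled where the adjusted p is under 0.05. Fabp1, Acsl1, Acaa1b and Slc27a2 lie farthest below 0 in miR-Ctrl BDL and Pdk4 and Acot2 farthest above it, on the TMM scale. With library size alone the median of all genes moves up to 0.79 and 0.82 and the median of the members turns above 0.

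Uptake, binding and activation held the deepest falls. Fabp1 (chr6:71199879-71205034), the liver's fatty acid binding protein, read 5504, 3663, 4465, 4994 and 2221 normalized counts in no BDL, 529, 228, 416 and 578 in miR-Ctrl BDL and 1598, 395, 332 and 360.5 in anti-miR BDL. Every BDL mouse was below every no BDL mouse, and anti-miR mouse 1 was far above the other BDL mice. Its log2 fold change against no BDL was -3.23 (SE 0.37, adjusted p = 0.000291) in miR-Ctrl BDL and -2.61 (SE 0.55, adjusted p = 0.0112) in anti-miR BDL. Per kilobase of exon Fabp1 was the most abundant member in each group, and it made up 71.9% of the summed level of the members in no BDL, 33.1% in miR-Ctrl BDL and 39.0% in anti-miR BDL. Acsl1 (chr8:46471037-46536051) joins coenzyme A to long-chain fatty acids, the step that commits them to metabolism. It stood at 804, 921, 751, 802 and 482 in no BDL, 144, 137, 128 and 123 in miR-Ctrl BDL and 284, 276, 149.5 and 176 in anti-miR BDL, so the groups with and without BDL did not overlap. Acsl1 had the lowest adjusted p of the set, with -2.48 (SE 0.20, adjusted p = 7.40e-05) in miR-Ctrl BDL and -1.75 (SE 0.26, adjusted p = 0.00285) in anti-miR BDL. Unlike most members, Fabp1 and Acsl1 were not highest of their group in the mice that stood apart, and without miR-Ctrl mouse 3 their log2 fold changes were -3.21 and -2.46.

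Slc27a2 (chr2:126553024-126588243), which brings in and activates very long chain fatty acids, read 1062, 1054, 1272, 1142 and 694 in no BDL. After BDL it read 312, 282, 618 and 324 with miR-Ctrl and 596, 561, 375 and 442 with anti-miR, again below every no BDL mouse. Its log2 fold changes were -1.43 (SE 0.27, adjusted p = 0.00312) and -1.06 (SE 0.22, adjusted p = 0.0107). The fourth gene of this role, the fatty acid translocase Cd36, went the other way. It was called higher in miR-Ctrl BDL at 1.09 (SE 0.38, adjusted p = 0.0489), and this rested on miR-Ctrl mouse 3, at 152 against 56.3 to 62 in the other miR-Ctrl mice and 22.2 to 64.1 in no BDL. Without that mouse Cd36 was at 0.61 (SE 0.30, adjusted p = 0.135), and in anti-miR BDL it was at 0.76 (SE 0.33, adjusted p = 0.128). The falls of Fabp1, Acsl1 and Slc27a2 were also called with library size alone in miR-Ctrl BDL, and in anti-miR BDL those of Fabp1 and Acsl1 were, while that of Slc27a2 was not.

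The carnitine shuttle, which carries long-chain acyl groups across the mitochondrial membranes, gave 1 fall among 4 genes, where 16.6% of all genes were called lower. The sign of this fall turned with library size alone. Cpt2, the transferase on the inner side, read 142, 143, 117, 134 and 104 in no BDL, 72.7, 58, 102 and 64.8 in miR-Ctrl BDL and 96.7, 123, 69.5 and 74.4 in anti-miR BDL. The miR-Ctrl mice were all below the no BDL mice, if only just for mouse 3, and anti-miR mouse 2 was within the no BDL range. Cpt2 fell with a log2 fold change of -0.76 (SE 0.17, adjusted p = 0.00739) in miR-Ctrl BDL and stood at -0.48 (SE 0.18, adjusted p = 0.0857) in anti-miR BDL with all mice and -0.66 (SE 0.16, adjusted p = 0.0142) without mouse 2. Cpt1a (chr19:3322326-3385735), the outer transferase and the step that sets the rate of the pathway, read 324, 263, 433, 455 and 233 in no BDL, 147, 151, 478 and 161 in miR-Ctrl BDL and 247, 666, 211 and 252 in anti-miR BDL. The 2 mice that stood apart were above every no BDL mouse, while the other miR-Ctrl mice were below all of them. With all mice the log2 fold change in miR-Ctrl BDL was -0.53 (SE 0.38, adjusted p = 0.308), and without mouse 3 it was -1.14 (SE 0.23, adjusted p = 0.00389). In anti-miR BDL it was 0.024 (SE 0.35, adjusted p = 0.97) with all mice and -0.51 (SE 0.23, adjusted p = 0.128) without mouse 2.

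Slc25a20, the carrier that swaps acylcarnitine for carnitine, had the same shape, at 93.7, 83.7, 88.2, 94.5 and 66.6 in no BDL, 39.04, 44.2, 120.4 and 39.9 in miR-Ctrl BDL and 65, 125, 49.9 and 53.7 in anti-miR BDL. It was not called with all mice, at -0.47 (SE 0.32, adjusted p = 0.284) and -0.20 (SE 0.25, adjusted p = 0.602). It was lower without the mouse that stood apart, at -1.04 (SE 0.13, adjusted p = 0.00042) in miR-Ctrl BDL and -0.58 (SE 0.14, adjusted p = 0.0155) in anti-miR BDL. Crat, the transferase for short acyl groups, was at 0.29 (SE 0.16, adjusted p = 0.181) in miR-Ctrl BDL with all mice and 0.17 without mouse 3.

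**Figure D3:**
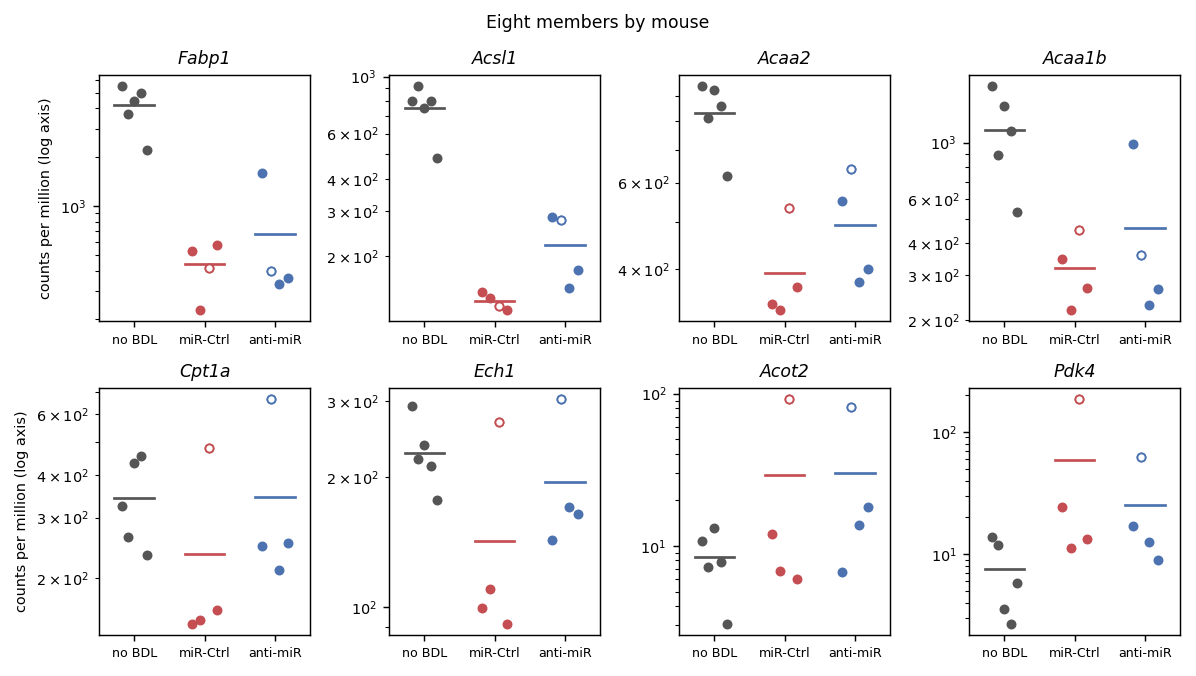
Normalized counts (log axis) of 8 members in each mouse of the 3 groups, with lines at group means and open circles for miR-Ctrl mouse 3 and anti-miR mouse 2. All BDL mice lie below all no BDL mice for Fabp1 and Acsl1, whereas for Cpt1a, Acot2 and Pdk4 the open circles lie above every no BDL mouse.

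Of the 11 genes of mitochondrial beta-oxidation, the spiral that removes acetyl-CoA from the chain, 4 fell in miR-Ctrl BDL (Acads, Hadh, Acaa2 and Eci1) and 2 in anti-miR BDL (Acaa2 and Eci1). Of all genes, 16.6% and 8.44% were called lower. The medians of the 11 were -0.50 and -0.39, and with library size alone they turned above 0. Acaa2, the thiolase that closes each turn, read 944, 811, 927, 858 and 619.9 in no BDL, 339, 330.3, 532 and 369 in miR-Ctrl BDL and 549.9, 640.4, 377 and 401 in anti-miR BDL. Only anti-miR mouse 2 overlapped with no BDL. Acaa2 fell in both BDL groups, at -1.06 (SE 0.19, adjusted p = 0.00235) and -0.74 (SE 0.21, adjusted p = 0.0328). Eci1, an isomerase that lets unsaturated chains enter the spiral, moved with it, from 108, 88.5, 104, 95.8 and 65.3 in no BDL to 39.1, 34.02, 61.9 and 39.3 in miR-Ctrl BDL and 62.1, 73.9, 44.9 and 44.9 in anti-miR BDL. Its log2 fold changes were -1.06 (SE 0.20, adjusted p = 0.00302) and -0.69 (SE 0.19, adjusted p = 0.0306). In anti-miR BDL neither call held when no BDL mouse 1, 2, 3 or 4, or anti-miR mouse 3 or 4, was left out.

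Hadh, the dehydrogenase for medium and short chains, read 314, 234, 269.5, 236 and 179 in no BDL, 147, 135, 175 and 158 in miR-Ctrl BDL and 226, 156, 159 and 162 in anti-miR BDL. The miR-Ctrl mice all lay below no BDL, and the lowest no BDL mouse was within the anti-miR range. The log2 fold changes were -0.66 (SE 0.16, adjusted p = 0.0104) and -0.46 (SE 0.19, adjusted p = 0.105). Decr1, a reductase for polyunsaturated chains, was 179, 148, 169, 187 and 109.6 in no BDL, 77.3, 76.5, 236 and 80.1 in miR-Ctrl BDL and 121, 157, 102 and 100.4 in anti-miR BDL. Here miR-Ctrl mouse 3 was the highest of all 13 mice and its group mates the lowest. Decr1 was at -0.42 (SE 0.35, adjusted p = 0.379) in miR-Ctrl BDL with all mice and -1.005 (SE 0.17, adjusted p = 0.00159) without mouse 3. The other acyl-CoA dehydrogenases, the trifunctional protein subunits Hadha and Hadhb and the electron acceptor Etfdh had log2 fold changes from -0.52 (Etfdh) to 0.0044 (Acadm) in miR-Ctrl BDL, besides Acads at -0.59 (SE 0.16, adjusted p = 0.0157). Without miR-Ctrl mouse 3, 10 of the 11 fell, all but Acadm, against 20.1% of all genes. Without anti-miR mouse 2, 9 of the 11 fell, all but Acadm and Hadh, against 13.4% of all genes. Reads of Acadvl cannot be told from those of Dvl2 on the other strand over 42.9% of its exon bases, and 19.7% of the 50-base windows of Hadhb also occur in other genes.

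Peroxisomes shorten the very long chains that mitochondria cannot take. Of the 7 peroxisomal members, 5 fell in miR-Ctrl BDL (Ehhadh, Acaa1a, Acaa1b, Decr2 and Pex11a), against 16.6% of all genes. In anti-miR BDL 1 fell, against 8.44% of all genes. That gene was Pex11a, a protein of peroxisome division, at -0.78 (SE 0.27, adjusted p = 0.0448) in miR-Ctrl BDL and -0.88 (SE 0.23, adjusted p = 0.024) in anti-miR BDL. Ehhadh, the bifunctional enzyme of the peroxisome, was at -0.75 (SE 0.24, adjusted p = 0.0375) and -0.39 (SE 0.43, adjusted p = 0.554), and -0.94 (SE 0.35, adjusted p = 0.0696) in anti-miR BDL without mouse 2. With library size alone 1 of the 7 was called lower in miR-Ctrl BDL, against 2.1% of all genes. In anti-miR BDL 1 was then called higher, against 76.6% of all genes. The peroxisomal thiolase Acaa1b (chr9:119148043-119157093) read 1675, 896, 1390, 1106 and 533 in no BDL, 347, 218, 453 and 267 in miR-Ctrl BDL and 990.0, 359, 229 and 264 in anti-miR BDL. All miR-Ctrl mice lay below no BDL, and anti-miR mouse 1 alone reached the no BDL range. Acaa1b fell in miR-Ctrl BDL, at -1.78 (SE 0.34, adjusted p = 0.0034), and was at -1.26 (SE 0.48, adjusted p = 0.0905) in anti-miR BDL. Its near copy Acaa1a was 869, 515, 766, 637 and 352 in no BDL, 240.1, 189, 387 and 206 in miR-Ctrl BDL and 547, 379, 220.5 and 228 in anti-miR BDL, with log2 fold changes of -1.28 (SE 0.29, adjusted p = 0.00822) and -0.85 (SE 0.34, adjusted p = 0.0998). Both are uncertain as single genes, since 30.5% of the 50-base windows of Acaa1b and 12.9% of those of Acaa1a occur elsewhere, in each other above all.

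Decr2, the peroxisomal reductase, read 198, 155, 229.5, 202 and 117 in no BDL, 94.2, 73.4, 121 and 103 in miR-Ctrl BDL and 139.5, 184, 87.9 and 65.7 in anti-miR BDL. Only the lowest no BDL mouse overlapped with miR-Ctrl BDL. Its log2 fold changes were -0.86 (SE 0.21, adjusted p = 0.0101) and -0.58 (SE 0.30, adjusted p = 0.192), and -0.87 (SE 0.28, adjusted p = 0.0433) in anti-miR BDL without mouse 2. Ech1 (chr7:28825338-28832239), an isomerase of dienoyl chains, was at 292, 219.8, 238, 212 and 177 in no BDL, 99.3, 110.1, 268 and 91.6 in miR-Ctrl BDL and 143, 303, 170.4 and 164 in anti-miR BDL. The log2 fold change of Ech1 was -0.66 (SE 0.31, adjusted p = 0.123) in miR-Ctrl BDL with all mice and -1.16 (SE 0.16, adjusted p = 0.000644) without mouse 3. In anti-miR BDL it was -0.20 (SE 0.23, adjusted p = 0.558) with all mice and -0.50 (SE 0.16, adjusted p = 0.0449) without mouse 2. Eci2, another isomerase, went from -0.40 (SE 0.48, adjusted p = 0.553) to -1.32 (SE 0.22, adjusted p = 0.00146) in miR-Ctrl BDL and from -0.32 (SE 0.34, adjusted p = 0.529) to -0.85 (SE 0.21, adjusted p = 0.0148) in anti-miR BDL. Without the mouse that stood apart, 7 and 4 of the 7 peroxisomal members fell, against 20.1% and 13.4% of all genes.

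The acyl-CoA thioesterases, which release free acids from coenzyme A, split into 2 patterns. Acot8, a peroxisomal form, varied little, at 16.3, 9.90, 13.1, 13.5 and 14.6 in no BDL, 10.2, 8.58, 9.21 and 10.04 in miR-Ctrl BDL and 11.6, 10.1, 9.65 and 9.51 in anti-miR BDL. It fell in miR-Ctrl BDL, at -0.48 (SE 0.15, adjusted p = 0.0268), a sign that turned with library size alone, and was at -0.38 (SE 0.15, adjusted p = 0.0914) in anti-miR BDL, and the call was lost without no BDL mouse 1, 4 or 5 or miR-Ctrl mouse 2. The mitochondrial Acot2 (chr12:83987861-83993877) was set by single mice, at 10.8, 7.29, 13.1, 7.84 and 3.08 in no BDL, 11.97, 6.77, 92.1 and 6.01 in miR-Ctrl BDL and 6.68, 81.96, 13.7 and 17.9 in anti-miR BDL. Its log2 fold change of 1.79 (SE 0.80, adjusted p = 0.107) in miR-Ctrl BDL became -0.0041 (SE 0.40, adjusted p = 0.994) without mouse 3, and 1.84 (SE 0.66, adjusted p = 0.0738) in anti-miR BDL became 0.63 (SE 0.42, adjusted p = 0.278) without mouse 2. Its cytosolic neighbour Acot1 (chr12:84009502-84017670) read 19.6, 14.04, 18.3, 10.5 and 4.51 in no BDL, 9.97, 6.15, 54.4 and 5.28 in miR-Ctrl BDL and 6.50, 77.6, 12.1 and 18.7 in anti-miR BDL. In miR-Ctrl BDL it went from 0.50 (SE 0.69, adjusted p = 0.61) with all mice to -0.88 (SE 0.42, adjusted p = 0.122) without mouse 3, and in anti-miR BDL it went from 1.10 (SE 0.66, adjusted p = 0.26) to -0.08 (SE 0.45, adjusted p = 0.91) without mouse 2. Acot3 and Acot4 likewise had their highest BDL values in the 2 mice that stood apart. Without these mice Acot3 went from -0.10 to -1.89 in miR-Ctrl BDL and from 0.87 to -1.04 in anti-miR BDL, and was called in neither. These genes lie side by side and share sequence, in 27.7% of the 50-base windows of Acot2, 19.2% of Acot1 and 19.1% of Acot3, so reads may be split among them.

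Bdh1, the mitochondrial enzyme that turns acetoacetate into beta-hydroxybutyrate, read 217, 232, 237, 248 and 145 in no BDL, 119.6, 85.4, 107 and 92.3 in miR-Ctrl BDL and 186, 78.7, 94.9 and 123 in anti-miR BDL. The miR-Ctrl mice, mouse 3 included, all lay below no BDL, and anti-miR mouse 1 lay within its range. Bdh1 fell in miR-Ctrl BDL, at -1.07 (SE 0.18, adjusted p = 0.0016), and was at -0.81 (SE 0.26, adjusted p = 0.0521) in anti-miR BDL.

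Among the 5 remaining PPAR-alpha targets none fell and 1 rose in miR-Ctrl BDL, against 16.6% and 19.1% of all genes. Pdk4 (chr6:5483351-5496278), the kinase that holds back the oxidation of pyruvate when fat is burned, read 13.9, 11.97, 3.57, 2.72 and 5.86 in no BDL, 24.1, 11.2, 185 and 13.4 in miR-Ctrl BDL and 16.9, 62.5, 12.6 and 8.95 in anti-miR BDL. The rise of 2.95 (SE 0.88, adjusted p = 0.0262) in miR-Ctrl BDL rested on mouse 3, and without it Pdk4 was at 1.12 (SE 0.50, adjusted p = 0.0982). DESeq2 gave it no adjusted p. In anti-miR BDL Pdk4 was at 1.73 (SE 0.64, adjusted p = 0.079) with mouse 2 and 0.78 (SE 0.49, adjusted p = 0.257) without it. Aldh3a2, which oxidizes fatty aldehydes, was at 322, 233, 272, 229.8 and 106 in no BDL, 137, 106, 256 and 86.2 in miR-Ctrl BDL and 184, 252, 129 and 138 in anti-miR BDL, with log2 fold changes of -0.65 (SE 0.36, adjusted p = 0.19) and -0.39 (SE 0.30, adjusted p = 0.396). Without the mouse that stood apart these were -1.06 (SE 0.32, adjusted p = 0.0229) and -0.61 (SE 0.31, adjusted p = 0.158). Creb3l3, a hepatocyte transcription factor that works with PPAR-alpha in fasting, was 294, 319, 326, 369.5 and 245 in no BDL, 176, 176, 352 and 169.7 in miR-Ctrl BDL and 208, 415, 224 and 236 in anti-miR BDL. Its log2 fold change in miR-Ctrl BDL was -0.49 (SE 0.23, adjusted p = 0.125) with all mice and -0.82 (SE 0.14, adjusted p = 0.00173) without mouse 3, and in anti-miR BDL it was -0.18 (SE 0.22, adjusted p = 0.585) with all mice and -0.46 (SE 0.15, adjusted p = 0.0431) without mouse 2. The lipid droplet coat protein Plin2 and the pantetheinase Vnn1 were at 0.10 and 0.091 in miR-Ctrl BDL and at -0.08 and -0.15 in anti-miR BDL, none of them called. Without the mouse that stood apart they were at -0.44 and -0.66, and at -0.59 and -0.08, and again not called.

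The second comparison set the mice with anti-miR against the same no BDL mice. Of the 37 members, 6 fell (Slc27a2, Fabp1, Acsl1, Acaa2, Eci1 and Pex11a) and 0 rose, against 8.44% of the 13130 genes tested called lower and 13.1% called higher (21.5% in either direction). The median of the members was -0.38, and in 3 (Slc27a2, Fabp1 and Acsl1) the groups did not overlap, against 8.23% of all genes lower. Without anti-miR mouse 2, 19 members fell and 0 rose, with a median of -0.58, where 13.4% of all genes were called lower and 18.4% higher. With library size alone the median of all genes was 0.82, the members' median turned to 0.44 and the calls to 2 lower and 14 higher, against 0.998% and 76.6% of all genes. The count of 6 was 3 without no BDL mouse 1 or 4 or anti-miR mouse 3 or 4, and 10 without no BDL mouse 5 or anti-miR mouse 1. For these fits the share of all genes called was not taken. DESeq2 called 10 lower and 2 higher, against 11.6% and 16.1% of all genes. Both comparisons share the no BDL mice, so a difference between their counts is no test of the oligonucleotide.

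The third comparison, anti-miR BDL (mice 1, 3 and 4) against miR-Ctrl BDL (mice 1, 2 and 4), is that test. None of the 37 members was called by edgeR, and neither was any of the 13746 genes (0.0%), with a lowest adjusted p of 0.757 among the members. By size, 34 of 37 members were above 0, against 51.2% of all genes, and their median log2 fold change was 0.35, against 0.0057 for all genes. At an unadjusted p under 0.05 there were 11 members, all higher, against 6.28% of all genes in either direction and 3.71% higher. This count was 5 without miR-Ctrl mouse 4, against 3.58% of all genes, and 6 without miR-Ctrl mouse 2, against 8.49%, and ran up to 14 with any other mouse left out. It was 6 with the mouse number as a block, a fit of mice 1 and 4 of each group alone, against 7.67%. It was 1 with all 3 groups and all mice in 1 fit, against 5.04%. In 15 members all 3 anti-miR mice lay above all 3 miR-Ctrl mice, against 6.59% of genes, and in 0 below, against 4.77%. DESeq2 called 2 members, Cpt1a and Ech1, among 0.211% of all genes. The scaling did not move this result, with 34 members above the median of all genes under each of 3 scalings.

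By size alone, Acot3 (0.84), Acaa1b (0.83), Acot1 (0.80) and Fabp1 (0.78) had the highest log2 fold changes, with SE from 0.40 to 0.67. The lowest unadjusted p-values were those of Ech1, Cpt1a and Decr1, genes of 3 roles. Ech1 in the tested mice was 143 to 170.4 with anti-miR and 91.6 to 110.1 with miR-Ctrl, with a log2 fold change of 0.66 (SE 0.13, edgeR adjusted p = 0.757, DESeq2 adjusted p = 0.00303). Cpt1a was 211 to 252 against 147 to 161, at 0.63 (SE 0.13, edgeR adjusted p = 0.757, DESeq2 adjusted p = 0.00132). Decr1 was 100.4 to 121 against 76.5 to 80.1, at 0.46 (SE 0.12, edgeR adjusted p = 0.757). For these 3 genes every treated mouse of the table was above every control mouse of the table. The 3 genes below 0 were Ehhadh at -0.06, Plin2 at -0.16 and Pdk4 at -0.35. Medians by role ran from 0.30 for mitochondrial beta-oxidation to 0.60 for uptake, binding and activation and 0.63 for the thioesterases. The 7 members with a match to the seed of miR-873-5p were all above 0 with a median of 0.45, and 27 of the 30 without it were above 0 with a median of 0.35.

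**Figure D4:**
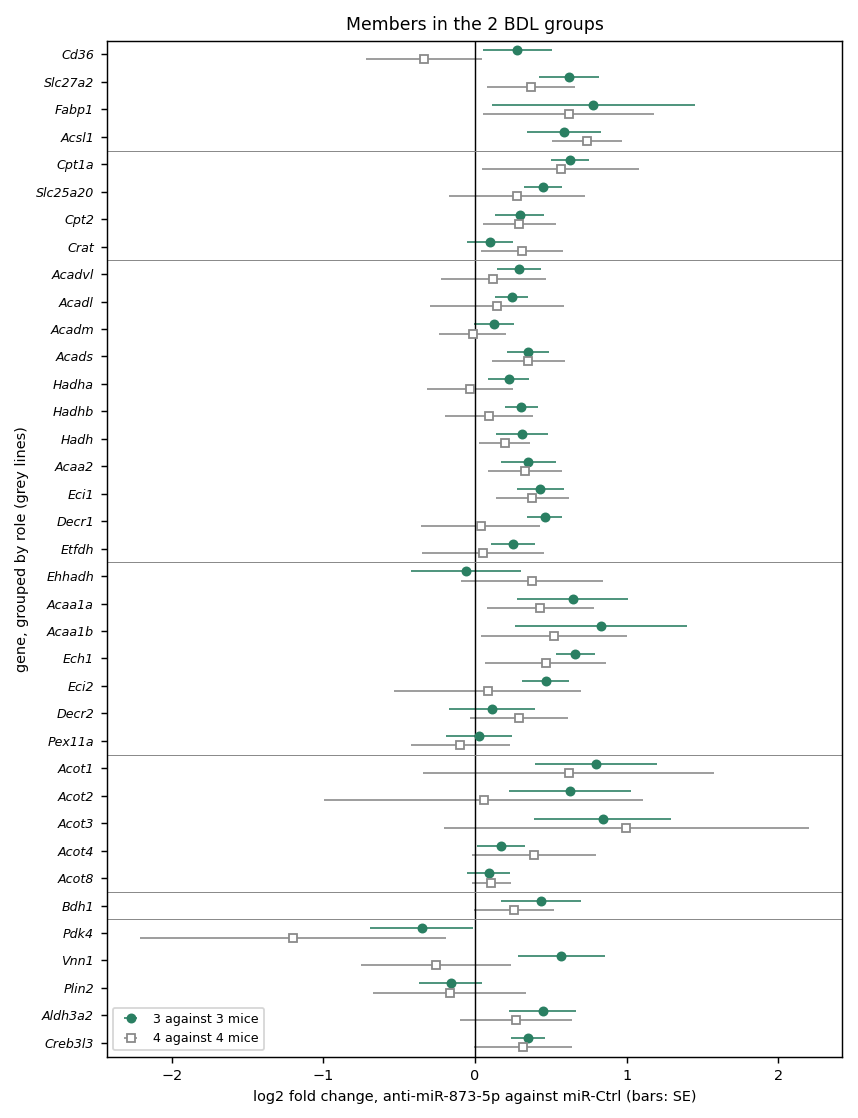
Log2 fold change of anti-miR BDL against miR-Ctrl BDL with its standard error for the 37 members, with the 3 mice per group of the deposited table (filled circles) and with all 4 per group (open squares). With 3 mice per group 34 of 37 points lie above 0, with 4 per group 30, and no point has an edgeR adjusted p under 0.05.

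With all 4 mice in each group the errors widened. Members above 0 numbered 30, the median was 0.28, 1 had an unadjusted p under 0.05, against 3.88% of all genes, and the lowest adjusted p was 0.98. Cpt1a was then at 0.56 (SE 0.52, adjusted p = 0.98) and Ech1 at 0.47 (SE 0.40, adjusted p = 0.98). Within the 3 mice per group, anti-miR mouse 1 was the highest treated mouse for 26 of 37 members, against 37.7% of genes. Without it 29 members were above 0 with a median of 0.19, and with any other mouse left out the median was up to 0.42. Fabp1 ran from -0.37 to 1.14 over these fits.

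Genes of the same pathway outside the set were read from a list of 59, all of which passed the filter. In miR-Ctrl BDL 28 fell and 2 rose, against 16.6% of all genes called lower and 19.1% called higher. The median log2 fold change was -0.59. In anti-miR BDL 16 fell and 1 rose, against 8.44% and 13.1% of all genes, and the median was -0.46. With library size alone the calls turned to 8 lower and 17 higher in miR-Ctrl BDL, against 2.1% and 71.6% of all genes. In anti-miR BDL they turned to 0 lower and 27 higher, against 0.998% and 76.6%. The median of all genes moved to 0.79 and 0.82. Of the 59, 51 and 47 then lay below that median. Without the mouse that stood apart, 36 fell and 4 rose in miR-Ctrl BDL, against 20.1% and 22.2% of all genes. In anti-miR BDL 28 then fell and 1 rose, against 13.4% and 18.4%. By role, the falls in miR-Ctrl BDL took in 7 of 9 mitochondrial, 9 of 13 peroxisomal and 6 of 9 peroxisome biogenesis genes, and 3 of 12 receptors and coregulators. Between both BDL groups none was called, 43 of 59 were above 0, against 51.2% of all genes, and the median was 0.14.

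**Figure D5:**
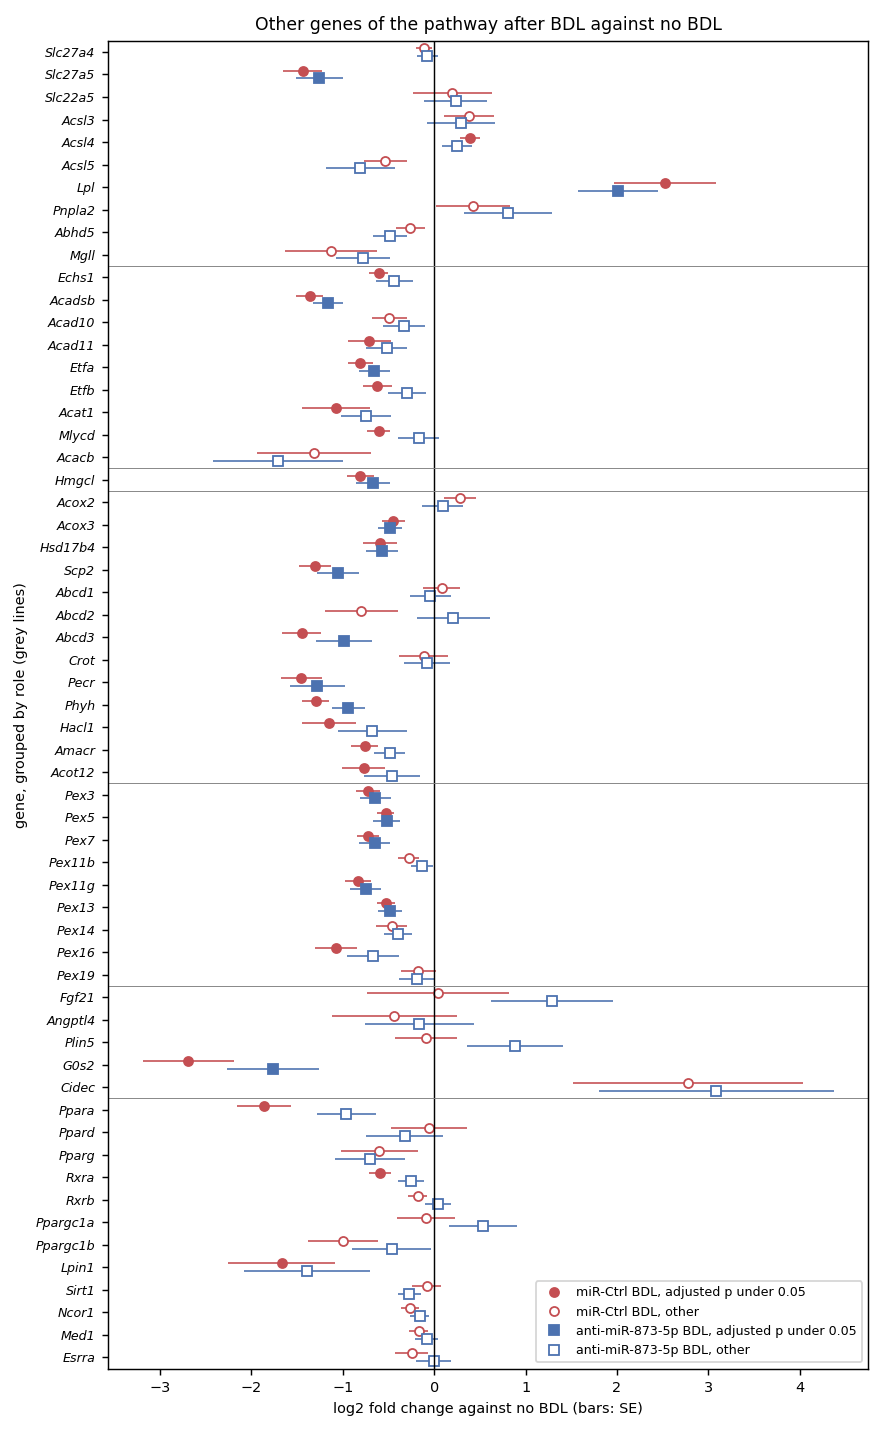
Log2 fold change against no BDL with its standard error for the 59 pathway genes outside the set, in miR-Ctrl BDL and anti-miR BDL. In miR-Ctrl BDL 28 fell and 2 rose on the TMM scale, against 16.6% and 19.1% of all genes. With library size alone 8 fell and 17 rose, against 2.1% and 71.6%.

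The receptor itself was among the genes that fell. Ppara read 170.4, 194, 252, 241 and 87.1 in no BDL, 51.2, 40.1, 47.8 and 65.8 in miR-Ctrl BDL and 132, 102, 57.3 and 91.2 in anti-miR BDL. The miR-Ctrl mice, mouse 3 included, were all below no BDL, and 3 of the 4 anti-miR mice were at or above the value of the lowest no BDL mouse. Ppara fell in miR-Ctrl BDL, at -1.86 (SE 0.29, adjusted p = 0.00133), was at -0.96 (SE 0.32, adjusted p = 0.0576) in anti-miR BDL, and between both BDL groups at 0.83 (SE 0.32, adjusted p = 0.763). Its partner Rxra was 384, 418, 428, 460.0 and 388 in no BDL, 234, 286, 302 and 265 in miR-Ctrl BDL and 315, 420.5, 299 and 341 in anti-miR BDL. Rxra fell in miR-Ctrl BDL, at -0.59 (SE 0.12, adjusted p = 0.00433), and stood at -0.25 (SE 0.14, adjusted p = 0.235) in anti-miR BDL, and with library size alone both turned above 0.

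The list's highest log2 fold changes were those of Cidec, a lipid droplet protein, which were not called, at 2.77 (SE 1.26, adjusted p = 0.112) and 3.09 (SE 1.28, adjusted p = 0.113). Cidec read 135 in miR-Ctrl mouse 3 and 169.6 in anti-miR mouse 2, against 1.08 to 10.7 in the other 11 mice. Among the genes of the list called in miR-Ctrl BDL, 2 rose, Lpl and Acsl4, and G0s2, Ppara, Lpin1 and Pecr fell most. Lpl, the lipase that frees fatty acids from lipoproteins, read 9.29, 14.5, 19.5, 20.8 and 42.1 in no BDL, 142, 146, 23.8 and 168 in miR-Ctrl BDL and 87.4, 36.3, 108 and 105 in anti-miR BDL. It rose by 2.52 (SE 0.56, adjusted p = 0.00677) and 2.01 (SE 0.44, adjusted p = 0.0121), and miR-Ctrl mouse 3 and anti-miR mouse 2 were lowest of their groups. Acsl4, an activating enzyme for arachidonic acid, was 64.6, 53.8, 47.2, 59.3 and 58.8 in no BDL and 77.9, 64.04, 78.99 and 72.8 in miR-Ctrl BDL, where miR-Ctrl mouse 2 was level with the highest no BDL mouse. It rose by 0.39 (SE 0.11, adjusted p = 0.0203) in miR-Ctrl BDL and was at 0.25 (SE 0.17, adjusted p = 0.318) in anti-miR BDL. G0s2, an inhibitor of fat breakdown, was 92.5, 134, 185, 142 and 34.7 in no BDL, 18.01, 9.54, 31.9 and 12.8 in miR-Ctrl BDL and 38.9, 48.2, 11.2 and 38.5 in anti-miR BDL, and fell in both BDL groups, at -2.69 (SE 0.50, adjusted p = 0.00303) and -1.76 (SE 0.50, adjusted p = 0.0334). Pecr, a peroxisomal reductase of chain elongation, was 163, 194, 181, 158 and 123 in no BDL, 63.4, 59.8, 35.8 and 76.5 in miR-Ctrl BDL and 99.8, 31.9, 78.1 and 55.5 in anti-miR BDL. It fell in both BDL groups, at -1.45 (SE 0.22, adjusted p = 0.00113) and -1.28 (SE 0.30, adjusted p = 0.0169), with no overlap. Lpin1, a phosphatase that also aids PPAR-alpha, ranged from 30.4 to 246 within no BDL alone and was at -1.67 (SE 0.58, adjusted p = 0.0479) in miR-Ctrl BDL, a call lost without most single mice. Calls were also lost for Acsl4 in miR-Ctrl BDL without miR-Ctrl mouse 1, and in anti-miR BDL for Pecr without mouse 4 of that group and for G0s2 without no BDL mouse 1, 2, 3 or 4 or anti-miR mouse 3 or 4.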

How the data were processed

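Livers of 13 mice were sequenced as single reads of 50 nt on a HiScanSQ from TruSeq RNA v2 libraries, which do not keep strand. Per the authors, TopHat placed the reads on mm10. The deposited values are raw counts by Entrez gene, in a separate table for each comparison. The counting program and its annotation are not given in the sources used here. The submitters' processing notes also list CASAVA 1.8.2, FastQC, Trim Galore and DESeq2. Mice were grouped by their labels, and the labels' numbers only count mice within a group. The labels give no more on how libraries of a group are related, so p-values measure only the spread between these samples.

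Each table was analysed in R 4.3.3 with edgeR 4.0.16 (filterByExpr, TMM scaling, quasi-likelihood test, Benjamini-Hochberg adjustment over all genes tested, threshold 0.05). The standard error is the absolute log2 fold change over the square root of F. For values of single mice, all 13 were scaled together on 22507 genes whose counts differed by at most 1% between tables. Alternatives were library size alone, DESeq2's size factors, DESeq2 1.42.0, filters at a count of 1 or a mean count of 10, all groups in 1 fit, a replicate block, and other sets of mice. The replicate block used only mice whose number occurs in both groups. Tests were checked on simulated counts.

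Gene positions are of GRCm38. For shared sequence, transcripts were read in windows of 50 bases and the percent also found in another gene was taken. The members and lists were chosen with earlier results of these data known. Named in full were up to 3 members per role with the largest change in miR-Ctrl BDL, the 3 with the lowest p between the BDL groups, the called pathway genes with the 4 largest changes each way, and Ppara and Rxra. Of the pathway list and of the genes named, 2 genes are not reported here. Other members named were chosen after their values were seen.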

Additional observations from a re-analysis of the deposited data

Results flagged for a closer look

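Dixon's test looked, for each of the 37 members in each of the 3 groups (111 groups of 4 or 5 mice), for a highest or lowest mouse whose gap to the next mouse was a large share of the range of its group. It marked 33 of the 111, where chance marks about 1 in 20, and the members are not independent of each other. The share marked over all genes was not taken, so the count does not set the members apart from other genes. Of the genes tested in both comparisons with no BDL, miR-Ctrl mouse 3 was highest of its group for 39.4% and anti-miR mouse 2 for 37.3%. The values below are gap over range.

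miR-Ctrl BDL mouse 3 was the high mouse in 18 members. The gap was 0.941 for Cd36 and 0.872 for Slc27a2 among the uptake genes, and 0.958 for Cpt1a and 0.936 for Slc25a20 in the carnitine shuttle. In mitochondrial beta-oxidation it was 0.906 for Acadvl, 0.924 for Acadl, 0.867 for Acadm, 0.861 for Hadha, 0.914 for Hadhb, 0.978 for Decr1 and 0.928 for Etfdh. It was 0.895 for Ech1 and 0.915 for Eci2 in peroxisomes, 0.904 for Acot1, 0.931 for Acot2 and 0.927 for Acot3 among thioesterases, 0.926 for Pdk4 and 0.963 for Creb3l3.

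Anti-miR BDL mouse 2 was the high mouse in 9 members, 8 of them among the 18. The gap was 0.91 for Cpt1a, 0.933 for Acadl, 0.8295 for Ech1, 0.885 for Eci2, 0.85 for Acot2, 0.933 for Acot3, 0.867 for Acot4, 0.851 for Pdk4 and 0.867 for Creb3l3.

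Anti-miR BDL mouse 1 was the high mouse for Fabp1 (0.95) and Hadh (0.901), and it remains in the table of both BDL groups. In no BDL, mouse 5 was low for Hadha (0.781) and Hadhb (0.755), mouse 1 high for Crat (0.854) and mouse 3 high for Acot3 (0.723).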

How the results depend on the processing

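The scaling decided the sign of many values against no BDL. With library size alone, 4 members were called lower and 6 higher in miR-Ctrl BDL with a median of 0.25, against 2.1% and 71.6% of all genes. In anti-miR BDL 2 were then called lower and 14 higher with a median of 0.44, against 0.998% and 76.6%. In miR-Ctrl BDL the log2 fold changes then turned to 0.028 for Cpt2, 0.18 for Cpt1a, 0.27 for Slc25a20, 0.13 for Hadh, 0.32 for Acot8, 0.11 for Aldh3a2, 0.27 for Creb3l3, 0.0895 for Ech1, 0.32 for Decr1 and 0.20 for Rxra. In anti-miR BDL they turned to 0.33 for Cpt2, 0.58 for Slc25a20, 0.055 for Acaa2, 0.10 for Eci1, 0.35 for Hadh, 0.17 for Decr2, 0.44 for Acot8, 0.0089 for Bdh1, 0.40 for Aldh3a2, 0.61 for Creb3l3, 0.60 for Ech1, 0.42 for Decr1 and 0.56 for Rxra. By construction this scaling shifts all genes together, by 0.79 and 0.82 at the median. DESeq2's size factors gave 14 and 6 members lower, and the share of all genes called was not taken for them. The DESeq2 test called 1 member higher in miR-Ctrl BDL, 10 lower and 2 higher in anti-miR BDL, and 2 higher between both BDL groups, and the cause was not tested.

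Without the BDL mouse that the third table leaves out, 27 members were lower and 0 higher in miR-Ctrl BDL with a median of -0.96, and 19 were lower in anti-miR BDL. Acot2 and Acot1 turned to -0.0041 and -0.88 in miR-Ctrl BDL, and Cpt1a and Acot1 to -0.51 and -0.081 in anti-miR BDL. Leaving out each mouse in turn gave 12 to 27 lower, 0 to 2 higher and medians of -0.96 to -0.39 in miR-Ctrl BDL, and 3 to 19 lower, 0 to 1 higher and medians of -0.58 to -0.23 in anti-miR BDL. Of all genes, 20.1% were called lower without miR-Ctrl mouse 3 and 13.4% without anti-miR mouse 2. For the other fits against no BDL this share was not taken, so their counts do not set the members apart from other genes. Between both BDL groups it gave 0 calls and medians of 0.19 to 0.42. Signs changed within these ranges for Acot2 (-0.0041 to 2.13) and Acot1 (-0.88 to 0.81) in miR-Ctrl BDL, for Cpt1a (-0.51 to 0.19) and Acot1 (-0.081 to 1.43) in anti-miR BDL, and between both BDL groups for Pdk4 (-0.61 to 0.054), Decr2 (-0.24 to 0.33), Fabp1 (-0.37 to 1.14), Acaa1b (-0.19 to 1.18) and Acot8 (-0.015 to 0.15).

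The labels do not say that a mouse number marks a pair, and the numbers were not taken to pair mice. Deviations of same-numbered mice correlated at -0.07 to 0.033 in miR-Ctrl BDL and no BDL and at -0.204 to 0.086 in anti-miR BDL and no BDL, where 1 of 4 and 0 of 4 BDL mice correlated best with their own number. Between both BDL groups only numbers 1 and 4 are shared, and these correlated at 0.572 and 0.177, too few pairs to tell. A replicate block by number kept only mice whose number occurs in both groups. It left out no BDL mouse 5, and in the third comparison it kept only mice 1 and 4 of each group. In miR-Ctrl BDL 15 members were then lower and 0 higher, and in anti-miR BDL 7 lower and 1 higher. The share of all genes called was not taken for these fits against no BDL. Between both BDL groups 0 were called. Acot1 turned to -0.38 in miR-Ctrl BDL, Cpt1a to -0.24 in anti-miR BDL and Decr2 to -0.0479 between both BDL groups. The block and the loss of mice cannot be told apart in these values. All 37 members passed the filter, but counts went down to 6 for Acot3 in no BDL, and the part of depth in the values was not tested. The number of mice limits the third comparison to 3 against 3.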
